A study of Mus musculus with 4 samples.

Results

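The 38 genes described here encode proteins that build the mitotic spindle, tie chromosomes to it and time their separation. They were found by gene symbol among the 25827 genes listed in the count matrices, where all 38 were present. The group was chosen by values of these same libraries, since several of its genes leaned higher in knockout committed-like cells and lower in knockout quiescent-like cells. Differences between the genotypes are therefore given below as a description. Counts of genes called are printed beside them, but they do not test the group.

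The cells were myogenic progenitors (MPs), the descendants of muscle stem cells that rebuild fibres, taken from the tibialis anterior muscles of 12-week-old mice 6 days after cardiotoxin injury. Control mice (WT (Pax7Cre), below Pax7Cre) carried the Cre recombinase driven by the Pax7 promoter, and knockout mice (Pax7CremiR-501fl/Y, below miR-501KO) carried the same Cre and a floxed copy of the X-linked microRNA miR-501. Each of the 4 libraries pooled sorted cells of 3 mice, positive for α7-integrin and negative for CD45, CD31 and Sca1, and each genotype was sequenced in run 1 and in run 2 (replicates 1 and 2). Because Cre was present in both genotypes, its presence does not separate them, while deletion of miR-501 is limited to cells that have used the Pax7 promoter.

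At the onset of mitosis, cyclin B with CDK1 switches on the Aurora and Polo-like kinases, kinesins push the spindle poles apart, and the kinetochore, a protein plate assembled on centromeric chromatin, grips the ends of microtubules. The spindle checkpoint holds the anaphase-promoting complex back until every kinetochore is attached, after which cyclin B is destroyed and the chromatids separate. In regenerating muscle, activated progenitors divide before they turn on the differentiation factor myogenin (Myog), leave the cell cycle and fuse.

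Cells with at least 5000 UMIs (unique molecular identifiers, each 1 captured RNA molecule) and 1000 genes were kept, which left 3439 and 1829 Pax7Cre cells and 2833 and 2349 miR-501KO cells of 16519 barcodes, with 71843320 to 114211047 UMIs a library. Clusters were built without the 38 genes and named from marker lists, giving 3186 quiescent-like cells, 1494 cycling-like cells and 1320 committed-like cells (the 3 MP classes), and 3623 cells stayed unnamed. Despite the sort, 342 cells were macrophage-like, and the summed macrophage markers took 1031 and 864 CPM (UMI counts scaled to a common total per library) in Pax7Cre and 1663 and 971 in miR-501KO. A single library stood apart, since 5 unnamed clusters held 768 cells of miR-501KO replicate 1 and 1 cell of all other libraries together. The miR-501 gene is not among the listed genes, and its host gene Clcn5, which the deletion leaves in place and which therefore checks nothing, had 135 and 157 CPM in Pax7Cre against 143 and 138 in miR-501KO. Between 3 and 7 cells a library had a barcode that also occurred in another library.

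The promoters of 6 of these genes are shown as examples of promoters with and without a pair of short elements. These elements are known from genes that are transcribed late in the cell cycle: the CHR (cell cycle genes homology region, searched as TTTGAA or TTTAAA) and the CCAAT box (searched as CCAAT). Both strands were searched, so that TTCAAA and ATTGG also count and TTTAAA is its own partner, and matches may overlap, as CCAAT and ATTGG do in CCAATTGG. The RefSeq promoter table (GRCm38.p6, 250 bases before to 50 after each start) held 33 windows of 32 of the 38 genes. A CHR was in 29 of the 33 windows (87.9%) against 27.6% of all 32851 windows, a CCAAT box in 26 (78.8%) against 37.4%, and both in 25 (75.8%) against 10.7%. Only Bub1, Mad2l1, Nuf2 and Nusap1 had a window without a CHR. The 250 bases before the start are printed on the strand of the gene, with CHR and CCAAT matches in capitals, for Kif11 (chr19:37376132-37376381, plus strand), a spindle motor, for Cdc20 (chr4:118437344-118437593, minus) and Ube2c (chr2:164769679-164769928, plus), an activator and a ubiquitin-conjugating enzyme of the anaphase-promoting complex, for Top2a (chr11:99024190-99024439, minus), which untangles DNA, for Mki67 (chr7:135716380-135716629, minus), the Ki-67 proliferation marker, and for Nusap1 (chr2:119618048-119618297, plus), a spindle microtubule binder whose stretch has neither element.
Kif11: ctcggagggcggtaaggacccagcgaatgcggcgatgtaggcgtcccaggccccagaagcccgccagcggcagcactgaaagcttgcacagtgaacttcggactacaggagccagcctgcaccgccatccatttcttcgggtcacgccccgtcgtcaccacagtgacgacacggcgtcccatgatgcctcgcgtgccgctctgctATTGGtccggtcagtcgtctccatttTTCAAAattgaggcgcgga
Cdc20: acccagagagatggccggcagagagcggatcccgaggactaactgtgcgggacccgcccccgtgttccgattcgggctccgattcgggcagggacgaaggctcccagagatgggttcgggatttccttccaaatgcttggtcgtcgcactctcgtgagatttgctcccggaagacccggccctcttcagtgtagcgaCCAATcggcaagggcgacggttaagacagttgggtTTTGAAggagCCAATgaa
Ube2c: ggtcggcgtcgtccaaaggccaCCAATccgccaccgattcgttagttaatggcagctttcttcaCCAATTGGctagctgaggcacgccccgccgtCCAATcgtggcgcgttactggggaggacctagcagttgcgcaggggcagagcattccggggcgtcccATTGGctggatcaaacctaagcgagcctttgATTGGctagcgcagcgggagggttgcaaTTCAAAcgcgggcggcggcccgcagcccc
Top2a: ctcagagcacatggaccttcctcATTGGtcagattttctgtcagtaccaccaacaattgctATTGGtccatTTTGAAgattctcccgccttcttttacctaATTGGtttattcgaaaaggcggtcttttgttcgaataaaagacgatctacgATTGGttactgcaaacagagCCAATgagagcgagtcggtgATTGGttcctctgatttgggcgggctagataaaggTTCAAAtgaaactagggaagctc
Mki67: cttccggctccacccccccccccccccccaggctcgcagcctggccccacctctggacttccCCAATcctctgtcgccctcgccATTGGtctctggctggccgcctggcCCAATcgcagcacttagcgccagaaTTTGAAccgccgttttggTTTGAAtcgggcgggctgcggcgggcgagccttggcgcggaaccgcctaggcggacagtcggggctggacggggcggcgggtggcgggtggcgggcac
Nusap1: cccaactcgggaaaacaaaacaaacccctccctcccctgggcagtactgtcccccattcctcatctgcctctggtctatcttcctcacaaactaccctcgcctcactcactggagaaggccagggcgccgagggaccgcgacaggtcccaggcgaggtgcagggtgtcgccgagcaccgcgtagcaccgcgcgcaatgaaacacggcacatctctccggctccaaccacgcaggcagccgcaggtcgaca
A match is a stretch of letters and says nothing of whether a factor binds it.

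Of the 3 MP classes, the 38 genes had by far their highest level in cycling-like cells. Their summed level was 87.6 and 100.3 UMIs per 10000 in the cycling-like cells of Pax7Cre and 94.9 and 87.4 in those of miR-501KO. In quiescent-like cells it was 4.17 and 3.75 in Pax7Cre and 3.60 and 3.82 in miR-501KO, and in committed-like cells 2.67 and 2.30 in Pax7Cre and 4.44 and 2.50 in miR-501KO. Every library kept the same wide gap between cycling-like cells and the other MP classes, and only the committed-like cells of miR-501KO replicate 1 stood above their class. The gap varied between genes: on the log2 scale, with 0.5 CPM added and the UMIs of the 4 libraries summed, cycling-like over quiescent-like cells ran from 2.73 for Smc4 to 6.34 for Nusap1, with a median of 5.06. Nusap1 (ENSMUSG00000027306) had 212, 251, 230 and 201 CPM in the cycling-like cells of the 4 libraries and 2.90, 2.07, 1.11 and 2.59 in the quiescent-like cells. Smc4, a condensin subunit that compacts chromosomes, had 545, 661, 658 and 559 CPM in cycling-like and 84.1, 87.6, 96.1 and 92.8 in quiescent-like cells. The ranges did not overlap for either gene, and the quiescent-like values rested on 1645 to 2175 UMIs a library for Smc4 and on 19 to 75 for Nusap1. Over committed-like cells the median gap was 5.30, from 3.31 for Racgap1, which regulates the cytokinetic furrow, to 6.54 for Aurkb, the kinase of the chromosomal passenger complex. The clusters behind these classes were made from the same cells, so the gaps describe the classes and are not a test.

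**Figure D1:**
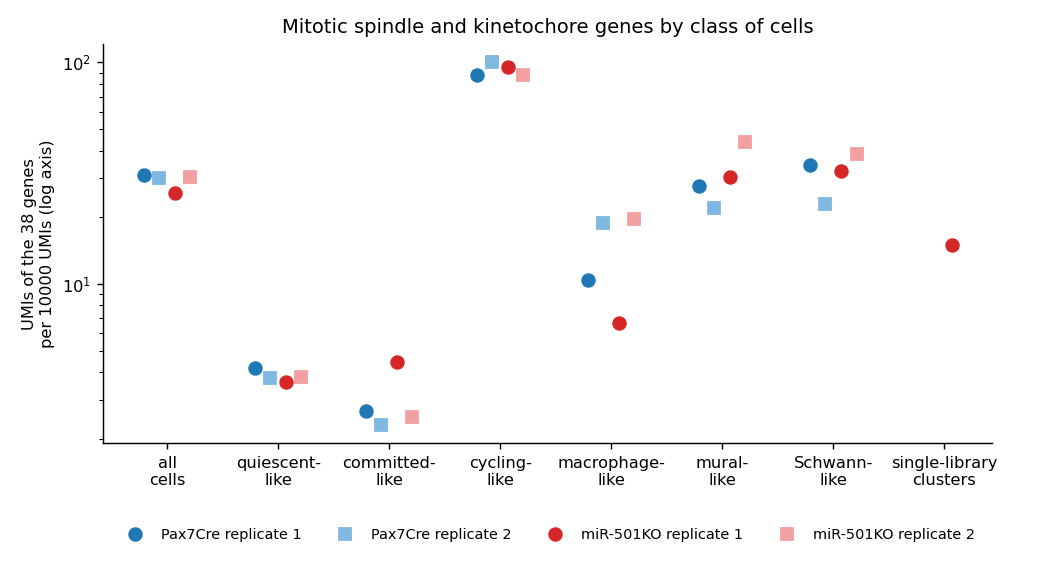
Summed level of the 38 genes (vertical log axis, UMIs per 10000 UMIs) in each class of cells, with 1 point per library. In every library the cycling-like cells, at 87.4 to 100.3 UMIs per 10000, lie far above the quiescent-like and committed-like cells, and the committed-like cells of miR-501KO replicate 1 (4.44) lie above those of the other libraries (2.30 to 2.67).

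RNA of the 38 genes was also found outside the MP classes. Mural-like cells, which wrap small vessels, held 27.6, 22.1, 30.4 and 43.8 UMIs of the 38 genes per 10000 in the 4 libraries, and Schwann-like cells, the glia of peripheral nerve, held 34.4, 22.9, 32.2 and 38.7. Macrophage-like cells held 10.4, 18.8, 6.66 and 19.6. In each of these classes every library was above the quiescent-like and committed-like level of the same library. The 30 myofibre-like cells of all libraries together held 0.518 UMIs per 10000.

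To follow the genes through the cell cycle without using them, cells were gated by 38 other mitosis genes and 29 DNA replication genes after each cell was thinned to 5000 UMIs. A cell with at least 4 UMIs of the mitosis genes was called mitosis-gated, and a remaining cell with at least 5 UMIs of the replication genes S-gated, for the phase in which DNA is copied. Both cuts were Otsu thresholds, and 1438 and 1863 cells lay within 1 UMI of them. The 3295 mitosis-gated cells were 31.5% of all cells and held 92.1% of the UMIs of the 38 genes.

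All 38 genes were higher in mitosis-gated than in S-gated cells (edgeR's quasi-likelihood test with the library as a block, adjusted p under 0.05 over all genes), where 19.3% of the 13447 genes tested were called higher. The log2 differences ran from 1.88 to 5.18 with a median of 3.73, against a median of -0.02 over all genes tested. The p-values measure how much the difference between the gates varied over the 4 libraries, which are pools of mice. Both gates were read from the same cells, and S-gated cells are by definition under the mitosis cut. A higher level of further mitosis genes was thus largely set by the gates, and the p-values do not test it. Of the 1031, 467, 1071 and 726 mitosis-gated cells, 794, 371, 713 and 581 were at or over the replication cut.

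Spindle motors and microtubule binders had the highest median difference of the 7 roles, 4.32. Nusap1 had 3.45, 4.13, 7.50 and 3.07 CPM in S-gated cells of Pax7Cre replicates 1 and 2 and miR-501KO replicates 1 and 2, and 172, 195, 131 and 158 in mitosis-gated cells of the same libraries, a log2 difference of 5.18 (SE 0.207, adjusted p = 7.50e-07). The least rise was in miR-501KO replicate 1, the library with the clusters of its own. Kif11, the motor that slides the spindle poles apart, rose from 3.92, 4.45, 5.15 and 3.07 CPM to 135, 149, 111 and 127, by 4.98 (SE 0.112, adjusted p = 3.96e-08). Hmmr, which anchors microtubules at the poles, and Kif2c, a kinesin that takes microtubule ends apart, rose by 4.56 and 4.49.

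Centromere and kinetochore genes had a median difference of 3.91. Cenpf, a large kinetochore protein, rose from 9.40, 11.4, 18.1 and 10.3 CPM to 424, 479, 332 and 433, by 5.09 (SE 0.192, adjusted p = 5.80e-07). Cenpe, the kinesin that carries chromosomes to the spindle equator, rose from 6.16, 7.52, 11.2 and 6.33 CPM to 213, 241, 181 and 211, by 4.77 (SE 0.157, adjusted p = 2.78e-07). For both genes all 4 libraries of one gate lay far above all 4 of the other.

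The medians of the remaining roles were 3.79 for midzone and cytokinesis genes, 3.69 for mitotic kinases and the passenger complex, 3.59 for cyclins, CDK1 and the anaphase-promoting complex, 3.30 for the spindle checkpoint and 2.81 for chromosome structure genes. The lowest values belonged to the condensin subunits Smc2 (1.88) and Smc4 (2.16) and to Mad2l1, the checkpoint inhibitor of Cdc20 (2.15). Smc2 had 96.4, 117, 76.5 and 86.6 CPM in S-gated and 350.3, 411, 258 and 370.3 in mitosis-gated cells. Smc2 too was higher in the mitosis gate of every library.

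Without the clusters found in 1 library the median was 3.99, and all 38 genes were again higher. A list of 43 other kinetochore, spindle and mitotic entry genes was likewise higher throughout, 43 of 43, but with a median of 1.47. The lowest value was 0.14 for Numa1, a spindle pole protein. Kifc1, a minus-end kinesin, and Espl1, the separase that cuts cohesin, were among the highest at 3.53 and 3.41.

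**Figure D2:**
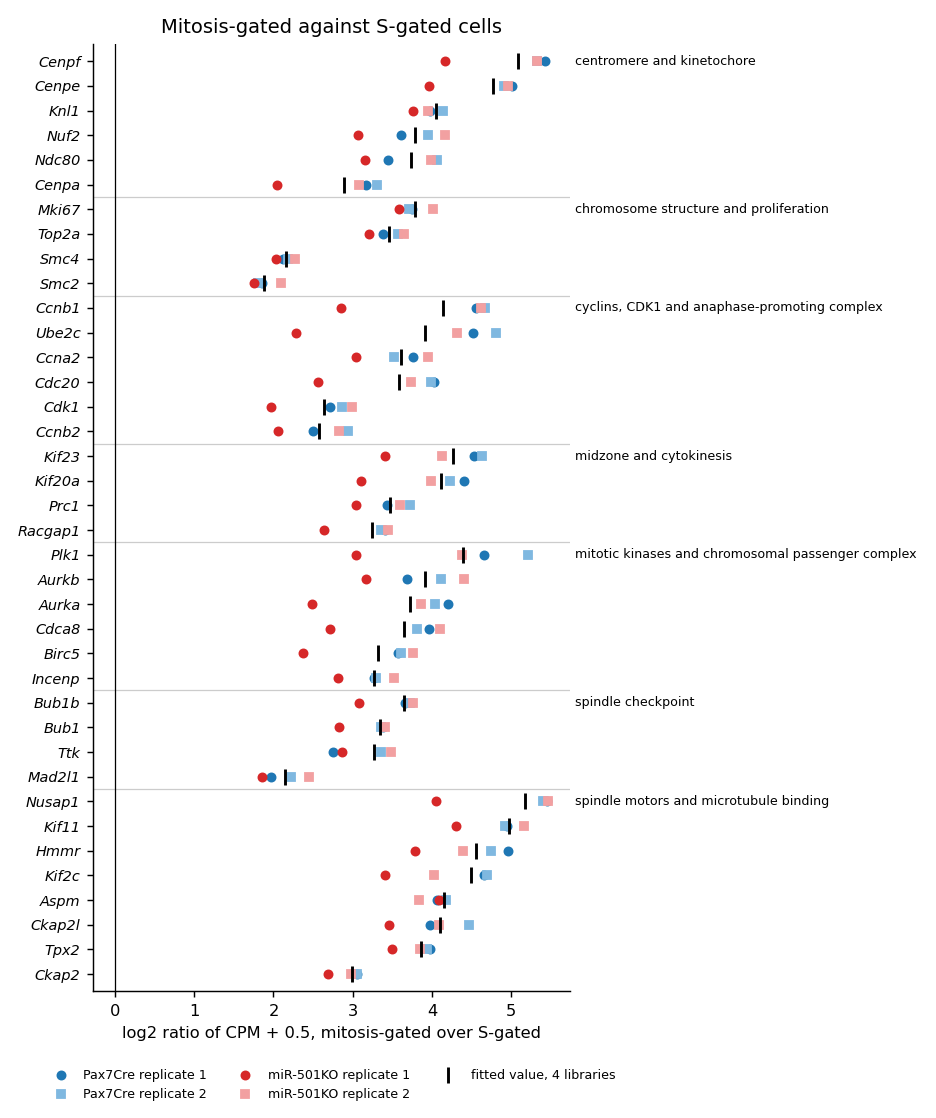
Log2 ratio of CPM (with 0.5 added) in mitosis-gated over S-gated cells for each of the 38 genes, grouped by role, with 1 point per library and a bar for the fitted value. Every point lies above 0, and the fitted values run from 1.88 (Smc2) to 5.18 (Nusap1).

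Already the S-gated cells differed from cells outside both gates. Without the single-library clusters, all 38 genes were higher in S-gated cells in each of the 4 libraries, by a median log2 value of 1.45. Cells outside the gates are by definition under both cuts, so a higher level of cell-cycle genes was largely set by the gates. How many of all genes were higher in every library was not counted, and no test was made. Top2a led with 2.69 ± 0.20 (SD, n = 4 libraries), with 74.3, 77.9, 63.5 and 59.7 CPM in S-gated cells and 11.8, 9.80, 8.92 and 10.4 in cells outside the gates. Cdk1, the kinase that drives entry into mitosis, followed with 2.42 ± 0.15, and its partner Ccna2, cyclin A2, with 2.41 ± 0.37. The smallest values were 0.69 ± 0.43 for the Polo-like kinase Plk1, 0.74 ± 0.52 for Cenpf and 0.78 ± 0.27 for Ube2c. Cenpf and Cenpe (0.81 ± 0.32), which had wide steps into the mitosis gate, were among those with the least rise in S-gated cells. The S-gated level enters both ratios, so a low one widens the first step and narrows the second.

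Mitosis-gated cells were then split by the replication list, a division chosen after seeing the data, into cells under its cut and cells at or over it (237, 96, 149 and 145 against 793, 371, 442 and 581 cells, without the single-library clusters). Relative to the cells at or over the cut, 17 genes were higher in all 4 libraries in the cells with little replication RNA and 9 were lower in all 4, and the other 12 went both ways. With the single-library clusters these counts were 10 and 9. Such counts were not made over all genes, so nothing is read from their size. Cells under the cut were also shallower, with median depths of 32142, 40226.5, 24820 and 28214 UMIs against 41032, 48685, 38405 and 36716. No test was made, since both gates are read from the same cells.

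The highest ratio was that of Cenpa. This gene, the centromeric histone, had 500.1, 475, 485 and 473 CPM in cells with little replication RNA and 284, 247, 246 and 254 in the others, a log2 ratio of 0.91 ± 0.07 (SD, n = 4). Cenpf stood at 0.88 ± 0.27, Ccnb2, cyclin B2, at 0.86 ± 0.12, Cdc20 at 0.83 ± 0.24 and Cenpe at 0.70 ± 0.14. Kif20a, a midzone kinesin, and Ccnb1, cyclin B1, had 0.62 ± 0.26 and 0.60 ± 0.16. The opposite order held for Aurkb, with 63.2, 73.9, 64.1 and 54.4 CPM against 94.2, 101, 85.1 and 89.5 and a ratio of -0.53 ± 0.14. Top2a (-0.53 ± 0.23), Smc2 (-0.47 ± 0.12), the outer kinetochore gene Ndc80 (-0.35 ± 0.28) and the checkpoint kinase Ttk (-0.31 ± 0.25) were also lower. The kinetochore genes therefore did not share 1 order, with Cenpa, Cenpf and Cenpe on the high side, Ndc80 on the low side and Knl1 and Nuf2 near 0 (-0.06 each).

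**Figure D3:**
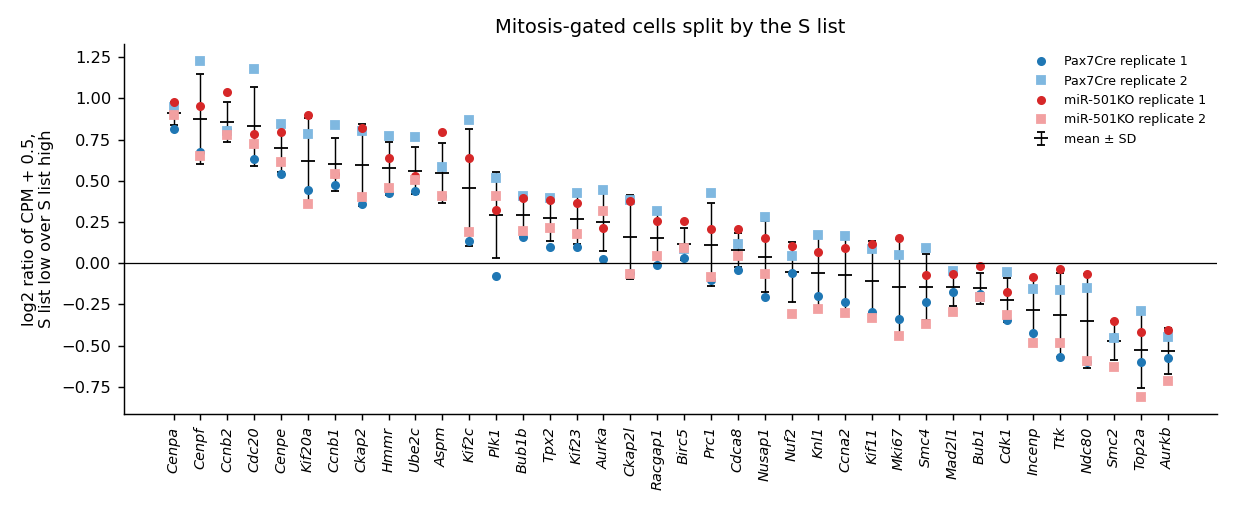
Log2 ratio of CPM (with 0.5 added, vertical axis) for each of the 38 genes, in mitosis-gated cells under the cut of the replication list over those at or over it, with 1 point per library and the mean ± SD, without the single-library clusters. Genes are ordered from Cenpa (0.91) to Aurkb (-0.53), with 17 above 0 and 9 below 0 in all 4 libraries. Such counts were not made over all genes.

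Progenitors that had turned on Myog were compared with those that still had Pax7, the stem cell factor, using thinned cells with at least 1 UMI of one gene and none of the other. This gave 876, 595, 607 and 744 Pax7-gated cells and 980, 414, 1166 and 497 Myog-gated cells in the 4 libraries, and 676 of the 1166 were from the single-library clusters. The summed level of the 38 genes was 32.5, 26.7, 26.6 and 26.9 UMIs per 10000 in Pax7-gated and 23.5, 25.3, 19.0 (22.7 without those clusters) and 23.1 in Myog-gated cells. It was lower in Myog-gated cells of every library, with the narrowest gap in Pax7Cre replicate 2. Fitted gene by gene with the same test, 14 of the 38 genes were lower and 2 higher at an adjusted p under 0.05, against 25.0% and 25.7% of all genes tested (50.7% in either direction). The median log2 difference was -0.19, and -0.02 over all genes tested. The median of the 38 genes depended on the cells counted. It was -0.04 with a gate of 2 UMIs in place of 1, and -0.35 in the 3 MP classes only.

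Mki67 fell most among the genes that fell in every library, from 202, 168, 184 and 158 CPM in Pax7-gated cells to 122, 145, 90.2 and 118 in Myog-gated cells, a log2 difference of -0.60 (SE 0.135, adjusted p = 0.00615). Spindle motors and binders lay below 0 in 8 of 8 cases and 4 were called, where 25.0% of all genes were called lower. Aspm, which focuses the spindle poles, fell from 43.0, 35.9, 38.3 and 33.4 CPM to 30.8, 26.7, 21.0 and 26.6 (log2 -0.53, SE 0.105, adjusted p = 0.00316). Kif11 fell from 55.8, 45.0, 46.2 and 47.3 CPM to 39.5, 42.3, 28.3 and 35.3 (-0.43, SE 0.110, adjusted p = 0.0109). For both genes the highest Myog-gated library was below the lowest Pax7-gated one.

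Among checkpoint genes 4 of 4 lay below 0 and 2 were called (25.0% of all genes were called lower), Bub1 and Ttk, the kinase also called Mps1. Ttk fell from 14.3, 9.18, 8.96 and 10.2 CPM to 8.09, 8.09, 5.44 and 7.33 (-0.56, SE 0.134, adjusted p = 0.00810). Incenp, the scaffold of the passenger complex, fell from 58.7, 46.9, 44.7 and 45.6 CPM to 36.6, 38.4, 28.9 and 31.4 (-0.53, SE 0.0949, adjusted p = 0.00172). Kif23, the kinesin of the central spindle, fell from 52.7, 40.5, 37.97 and 40.8 CPM to 35.4, 32.5, 25.6 and 33.1 (-0.44, SE 0.0913, adjusted p = 0.00370). In all 3 genes the groups did not overlap. These genes, like Aspm and Kif11, were named because they were called and moved alike in every library. Overlap in this contrast was not counted over all genes. The other genes called lower were Ckap2, Tpx2, Ndc80, Knl1, Cenpe, Prc1 and Smc4, between -0.39 and -0.25.

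The cyclins, CDK1 and anaphase-promoting complex genes went the other way in the fit, with 6 of 6 above 0 (0.03 to 0.30, median 0.18) and none called by edgeR. Pax7Cre replicate 1 was the exception, with all 6 below 0 on its own. Without the single-library clusters 4 of 6 were above 0 (median 0.07, 1 called higher), and in the 3 MP classes 1 of 6 was (median -0.09, 2 called lower). Over all cells, the genes called higher of the 38 were Aurka, the spindle pole kinase, and Cenpa. Aurka had 17.7, 13.5, 13.5 and 15.4 CPM in Pax7-gated and 18.01, 18.9, 20.9 and 18.7 in Myog-gated cells (0.35, SE 0.115, adjusted p = 0.0315), with the least change in Pax7Cre replicate 1. Cenpa had 125, 80.1, 79.4 and 82.7 CPM against 124, 96.9, 131 and 111 (0.35, SE 0.122, adjusted p = 0.0394) and was not higher in Pax7Cre replicate 1.

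These calls shifted with the cells counted. Without the single-library clusters 19 genes were lower and 4 higher (Aurka, Cenpa, Ccnb1 and Racgap1), against 34.1% and 32.1% of all genes. In the 3 MP classes alone, 30 were lower and 0 higher by edgeR, against 35.7% and 33.4%, with Aurka at 0.10 (adjusted p = 0.305) and Cenpa at 0.15 (adjusted p = 0.0593). The 14 genes called lower in all cells were called lower in both of these fits. Without Pax7Cre replicate 1 they came down to 4, where 18.8% of all genes were called lower. Aurka was not called without Pax7Cre replicate 2, miR-501KO replicate 1 or miR-501KO replicate 2, with DESeq2 or with a gate of 2 UMIs. Cenpa was not called without Pax7Cre replicate 2, without miR-501KO replicate 2 or without the block of the library. Of the 43 other spindle and kinetochore genes, edgeR called 15 lower and 2 higher over all cells, against 25.0% and 25.7% of all genes. Among the lower were Mastl (-0.74), a kinase that protects mitotic phosphorylation, Ncapg2 (-0.70), a condensin II subunit, and Wee1 (-0.68), which inhibits CDK1. The higher were the checkpoint gene Mad1l1 (0.71, adjusted p = 0.000250) and the kinetochore gene Pmf1 (0.37, adjusted p = 0.0255).

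**Figure D4:**
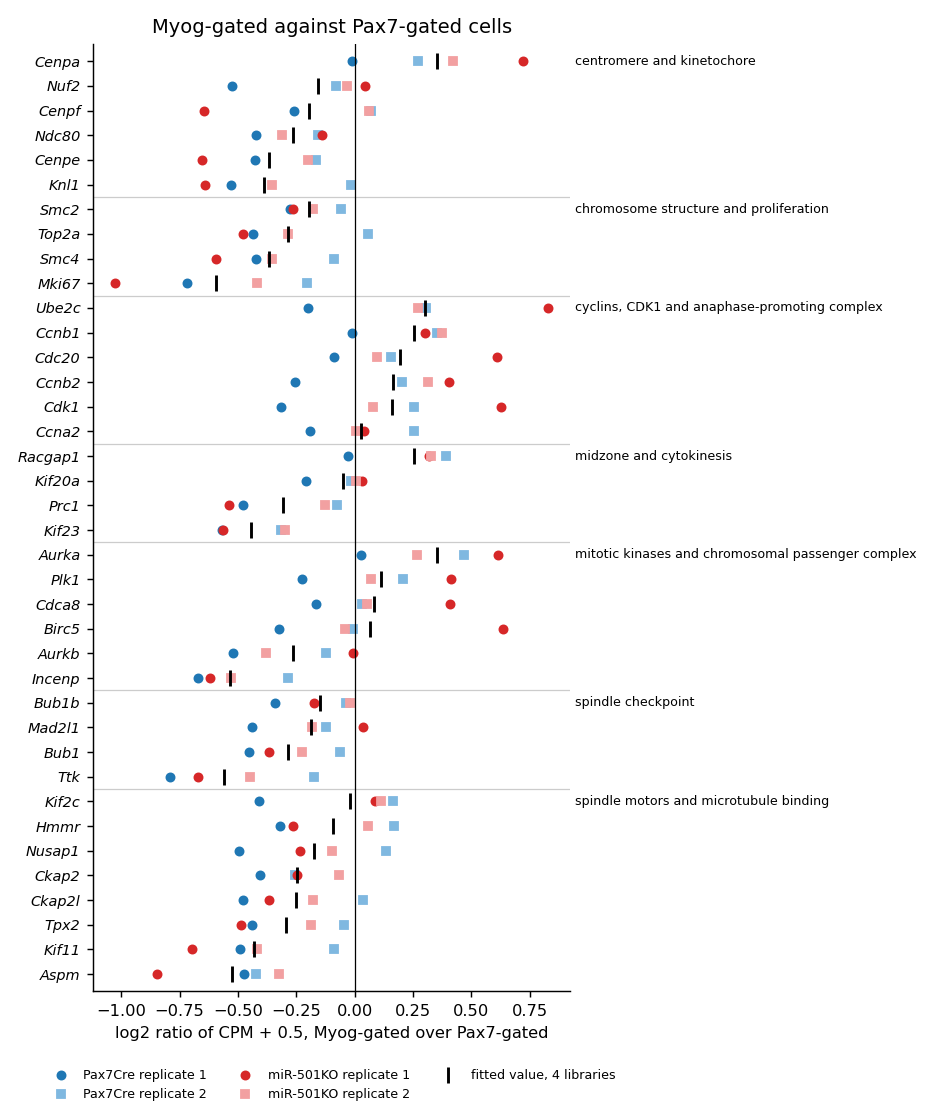
Log2 ratio of CPM (with 0.5 added) in Myog-gated over Pax7-gated cells for each of the 38 genes, grouped by role, with 1 point per library and a bar for the fitted value. Fitted values run from -0.60 (Mki67) to 0.35 (Cenpa), with 14 genes called lower and 2 higher.

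Genotype was described first over all cells. The 38 genes together took 31.1 and 30.1 UMIs per 10000 in Pax7Cre and 25.6 and 30.5 in miR-501KO, and the low library was miR-501KO replicate 1, which also had the most macrophage RNA and the clusters of its own, whose level was 14.96 per 10000. Leaving the cells of these clusters out moved the median log2 difference of the 38 genes from -0.13 to -0.11, against -0.00 over all genes tested. For run 1, which holds these clusters, the median moved from -0.33 to -0.28. How far they or the macrophage RNA account for the difference was not tested. With all cells, the run 1 median was -0.33 with 0 of 38 genes higher in miR-501KO, and in run 2 it was 0.06 with 27 of 38 higher. No gene of the 38 was called (edgeR, with 0 at an unadjusted p under 0.05, and 0 by DESeq2, and 0.0% of all genes called), and 9 were lower without overlap of the genotypes, where 12.9% of all genes were. Since this contrast chose the genes, nothing is read from these counts.

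The 12 genes with the most UMIs are given by library. Top2a (ENSMUSG00000020914) had 313 and 315 CPM in Pax7Cre against 231 and 296 in miR-501KO, a log2 difference of -0.25 (SE 0.13). Ki-67 RNA (Mki67) had 182 and 179 CPM against 163 and 167 (-0.13). Smc4 had 223 and 228 against 191 and 219 (-0.14). These 3 genes were lower in miR-501KO without overlap, and the lower library was replicate 1 in each. The condensin subunit Smc2 had 160.4 and 169.6 CPM in Pax7Cre against 119 and 167 in miR-501KO. Ube2c had 214 and 182 against 165 and 193. Cdk1 had 135 and 123 against 106 and 130.3. These 3 overlapped between the genotypes, with the lowest value in miR-501KO replicate 1. Cenpf had 168 and 165 CPM in Pax7Cre against 132 and 171 in miR-501KO. Cenpe had 84.5 and 83.5 against 72.4 and 83.5. Cenpa had 142 and 106 against 113 and 125. The lowest library was miR-501KO replicate 1 for Cenpf and Cenpe and Pax7Cre replicate 2 for Cenpa. Prc1, which bundles midzone microtubules, had 163 and 160.2 CPM against 129.7 and 166. Birc5 (survivin), a passenger complex subunit, had 158 and 129 against 122 and 147. Cdca8 (borealin), another, had 91.9 and 72.5 against 70.6 and 85.0. These 3 were lowest in miR-501KO replicate 1, and all 6 overlapped between the genotypes.

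Without the mitosis-gated cells, an alternative chosen after seeing the data, the median over all cells was 0.27 with 32 genes higher and 6 lower. The share of mitosis-gated cells was 29.98% and 25.5% in Pax7Cre and 37.8% and 30.9% in miR-501KO. It was 28.6% in miR-501KO replicate 1 without the single-library clusters, in which 62.5% of cells were mitosis-gated (Wilson 95% interval 59.1 to 65.9%, counting error only). In these clusters the gated cells had 15.1 UMIs of the 38 genes per 10000 and the ungated cells 14.8, where the gated cells of Pax7Cre had 75.5 and 82.3 and its ungated cells 3.60 and 3.31. In Pax7-gated cells the mitosis-gated share was 27.2% and 22.9% in Pax7Cre and 19.6% and 24.5% in miR-501KO. In Myog-gated cells it was 21.1% and 21.3% against 49.7% and 27.4%, with 32.7% in place of 49.7% without the single-library clusters. In the 3 MP classes the direction turned, with 19.97% and 20.8% in Pax7Cre against 17.2% and 18.6% in miR-501KO, and over all cells of these classes the shares were 30.4% and 27.6% against 25.6% and 28.9%. With 2 libraries against 2, an exact permutation test cannot give a p under 0.333, so no test of these shares is given.

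Cycling-like cells, 600 and 290 of Pax7Cre and 256 and 348 of miR-501KO, gave a median log2 difference of -0.07, with 3 of 38 genes higher and none called by edgeR (0 at an unadjusted p under 0.05, 0 by DESeq2, 0.0156% of all genes called). The median was -0.00 in run 1 and -0.13 in run 2, and 13 genes were lower without overlap, where 11.8% of all genes were. The 43 other genes had a median of -0.03.

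Quiescent-like cells (1035 and 721 of Pax7Cre, 647 and 783 of miR-501KO) had a median log2 difference of -0.23, with 6 of 38 genes higher and 32 lower. The runs went in opposite directions, with -0.57 in run 1 and 0.18 in run 2. None was called by edgeR (0 by DESeq2), where 0.122% of all genes were. At an unadjusted p under 0.05 in edgeR there were 2, against 528 of the 13066 genes tested. Without overlap 1 was higher and 7 were lower, where 15% and 13.6% of all genes were. Values of this contrast also chose the genes, so nothing is read from these counts. Birc5 had 14.6 and 9.30 CPM in Pax7Cre against 6.12 and 9.18 in miR-501KO (-0.65). Aurkb had 2.27 and 1.69 against 0.937 and 1.68 (-0.60). Cenpa had 22.2 and 10.9 against 10.7 and 11.5 (-0.58). In these 3, the lowest log2 values of the 38 genes, Pax7Cre replicate 1 was the high library and the other Pax7Cre library was close to miR-501KO replicate 2. Aspm had 3.49 and 2.35 CPM against 3.03 and 3.53 (0.16). Kif23 had 3.28 and 1.93 against 2.64 and 3.13 (0.14). Kif11 had 2.88 and 2.49 against 2.70 and 2.97 (0.07). These were the highest log2 values of the 38 genes, and all 3 overlapped between the genotypes. A small part of the class carried much of this RNA, as 5.89% and 7.77% of the Pax7Cre cells and 4.79% and 6.51% of the miR-501KO cells were mitosis-gated and held 30.9%, 32.4%, 21.4% and 28.0% of the UMIs. The remaining cells had 3.08 and 2.76 per 10000 in Pax7Cre and 2.98 and 2.96 in miR-501KO, and there the median was -0.15.

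Committed-like cells (548 and 271 of Pax7Cre, 251 and 250 of miR-501KO) had a median log2 difference of 0.60 over the 35 genes that passed the filter on low counts (Aurkb, Kif2c and Ttk did not), with 34 higher and 1 lower. The same median over all genes tested was -0.01, and over the 43 other genes, of which 37 passed, 0.04. None was called by edgeR (0 by DESeq2), where 0.0249% of all genes were. At an unadjusted p under 0.05 in edgeR there were 15, against 458 of the 12072 genes tested. With the run as a block 2 were called, of 55 genes called among the 12072 tested. Values of this contrast chose the genes, so nothing is read from these counts. Without overlap 10 were higher and 1 lower, where 13.4% and 14.1% of all genes were. Plk1 had 0.657 and 0.166 CPM in Pax7Cre against 2.08 and 1.36 in miR-501KO (1.89), from 13, 2, 21 and 14 UMIs. Nusap1 had 1.37 and 1.08 CPM against 7.53 and 0.972 (1.76). Knl1, the kinetochore scaffold, had 1.26 and 1.08 against 4.16 and 1.75 (1.31). Plk1 and Knl1 were higher in both miR-501KO libraries, while Nusap1 was high in replicate 1 alone. At the other end, Racgap1 had 18.6 and 14.02 CPM against 19.5 and 15.9 (0.11). Smc4 had 39.2 and 44.6 against 51.9 and 37.2 (0.09). Smc2 had 34.8 and 35.7 against 33.6 and 30.4 (-0.14). Of these only Smc2 did not overlap between the genotypes.

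Much of the RNA in 1 of these sums came from a single barcode. In miR-501KO replicate 1, 1 committed-like barcode with 148564 UMIs held 1488 of the 4259 UMIs of the 38 genes, 34.9%, where the leading cell of the other libraries held 3.25% to 4.18%. The 11 mitosis-gated cells of that library, 4.38% of its committed-like cells, held 59.6% of these UMIs, against 15.9% and 9.71% in 19 and 10 gated cells of Pax7Cre and 7.16% in 5 gated cells of miR-501KO replicate 2. With cells over 100000 UMIs left out, a limit chosen after seeing the data that kept 545, 263, 243 and 243 cells, the level was 2.67 and 2.34 per 10000 in Pax7Cre and 2.72 and 2.46 in miR-501KO. The median log2 difference was then -0.00, with 17 genes higher and 17 lower of 34, and -0.16 in run 1 and 0.30 in run 2 (medians over the 34 tested genes of CPM scaled by TMM factors). Without the mitosis-gated cells it was -0.03, with 15 higher and 19 lower. Plk1 had 0.639 and 0.185 CPM against 0.690 and 1.43 with the limit. Nusap1 had 1.33 and 1.20 against 1.73 and 1.02. Knl1 had 1.13 and 1.20 against 1.84 and 1.84. Plk1 and Knl1 were higher in both miR-501KO libraries with this limit, and Nusap1 overlapped. Without the mitosis-gated cells Plk1 overlapped too, at 0.447 and 0.175 against 0.443 and 1.15 CPM, and Knl1 had 0.993 and 0.613 against 1.22 and 1.53. Whether the large barcode was 1 cell or several captured together was not tested.

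**Figure D5:**
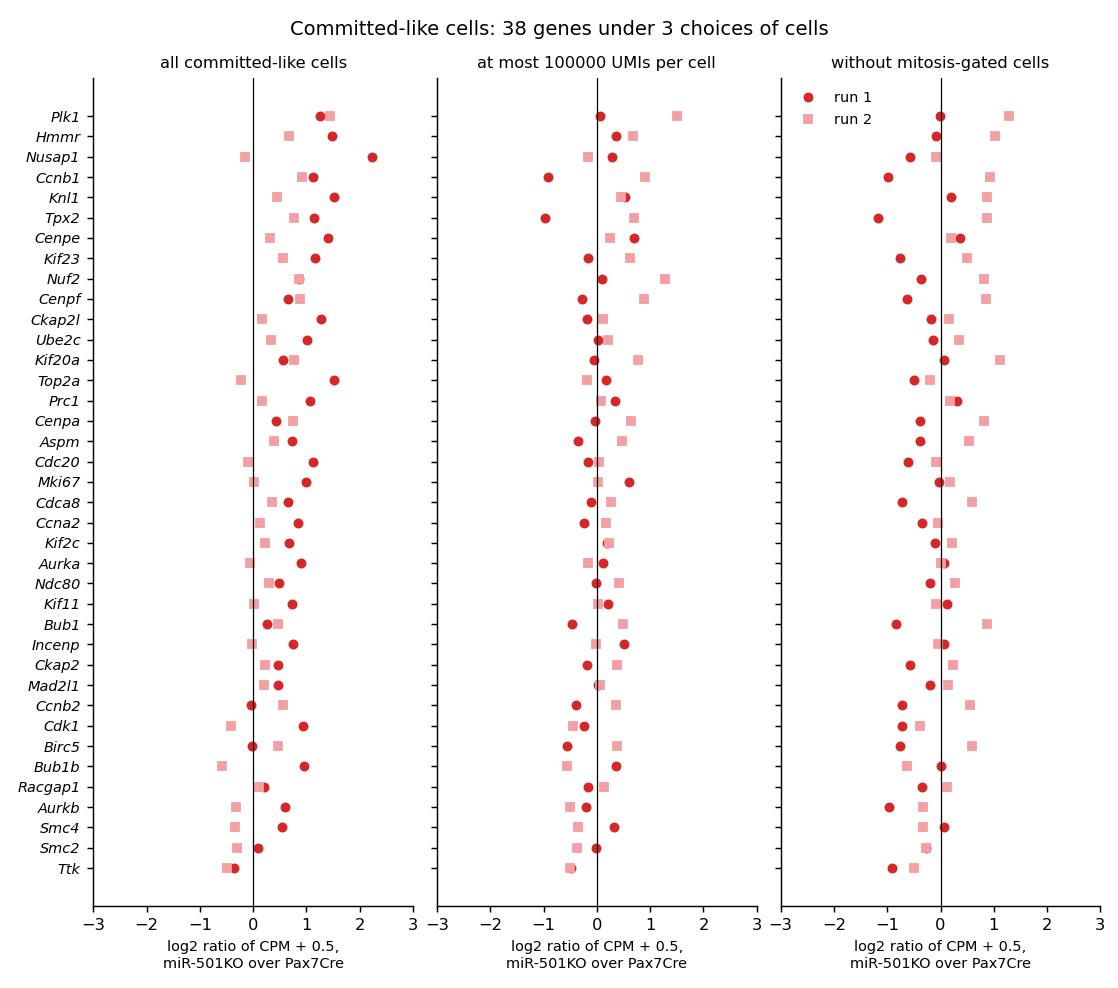
Log2 ratio of CPM (with 0.5 added, horizontal axis) of miR-501KO over Pax7Cre in committed-like cells, with 1 point per run for each of the 38 genes, with all cells, with at most 100000 UMIs per cell and without mitosis-gated cells, from CPM without TMM scaling and over all 38 genes. In run 1 the median moves from 0.80 to -0.02 and -0.34, and in run 2 it stays between 0.21 and 0.22.

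Finally, run 2 was compared with run 1 over all cells with genotype as a block, a contrast the choice of genes did not use. Of the 38 genes 27 lay above 0 and 11 below, with a median of 0.07 and none called by edgeR (0 at an unadjusted p under 0.05, and 0 by DESeq2), where 0.731% of all genes were called, 0.261% higher and 0.471% lower. This median mixes genotypes that differed. From run 1 to run 2 the summed level went from 31.1 to 30.1 UMIs per 10000 in Pax7Cre and from 25.6 to 30.5 in miR-501KO.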

How the data were processed

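Cells of 4 sorted MP libraries were sequenced with the 10x Genomics droplet chemistry. The deposited values are whole-number UMI counts per gene and barcode, made by the authors with Cell Ranger (the matrix headers name version 6.0.2) on GRCm39, per the submitters' processing notes, which also name Seurat. No comparison columns were used.

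The members and gene lists were chosen with earlier results of these data known. Kept cells (at least 5000 UMIs and 1000 genes) were scaled to 10000 UMIs and clustered with scanpy 1.11.5 on 2000 variable genes without the 38 members (30 components, 15 neighbours, Leiden resolution 0.5). A cluster was named from fixed markers, of which 3 or more had to be detected and rise by 1.5-fold, and committed-like, myofibre-like and quiescent-like markers were treated as 1 lineage in naming. No doublet caller was run. At most 100000 UMIs per cell was tried as an alternative after seeing the data.

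UMI counts were summed per library and class or gate and tested with edgeR's quasi-likelihood test (filterByExpr, TMM scaling, Benjamini-Hochberg adjustment over all genes tested). CPM values beside a fit are TMM-scaled, and CPM by class and in the split of mitosis-gated cells are unscaled. DESeq2, other scalings, filters, clusterings and gates, and leaving out each library, were alternatives. The scripts were tested on simulated data. Per-library values are given for the 12 members with the most UMIs, for up to 6 per direction called and moved alike in every library, and for the 3 highest and lowest in quiescent-like and committed-like sums. Of a list of 43 other spindle and kinetochore genes, up to 3 per direction are named, and 1 gene so selected is not reported here. Cenpa, named as the other member called higher in Myog-gated cells, and the members named in the splits by replication genes were chosen after their values were seen.

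Replicate numbers are runs in the labels. The genotype differences of the runs correlated across genes at 0.188 over all cells and, by class, at -0.019 (quiescent-like), -0.060 (cycling-like) and 0.0076 (committed-like). Kept cells had median depths of 25254 to 34579 UMIs.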

Additional observations from a re-analysis of the deposited data

Results flagged for a closer look

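For 6 of the 38 genes, miR-501KO was lower than Pax7Cre in both runs in quiescent-like cells and higher in both runs in committed-like cells. The difference between the classes was not tested, and both values come from the contrast that chose the genes. How many of all genes show such a pattern was not counted, so nothing is read from the number 6. Tpx2, which activates Aurora A on the spindle, had a log2 difference of -0.35 in quiescent-like and 1.02 in committed-like cells, 1.37 apart. Nuf2 and Ndc80, partners in the outer kinetochore, had -0.55 and 0.99 (1.54 apart) and -0.46 and 0.41 (0.86 apart), in that order. Aurka had -0.26 and 0.60 (0.86 apart), Prc1 -0.15 and 0.65 (0.80 apart), and Mki67 -0.18 and 0.60 (0.77 apart). In run 2 alone, the committed-like log2 ratios were 0.83 (Tpx2), 0.91 (Nuf2), 0.34 (Ndc80), 0.0042 (Aurka), 0.24 (Prc1) and 0.086 (Mki67). With at most 100000 UMIs per cell the committed-like values were -0.20 for Tpx2, 0.66 for Nuf2, 0.05 for Ndc80, -0.06 for Aurka, 0.18 for Prc1 and 0.32 for Mki67, so that Tpx2 and Aurka were no longer above 0.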

How the results depend on the processing

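The mitosis-gated cells were higher than S-gated cells for 38 of 38 genes under every alternative run, with medians from 3.18 (cut at the 75th percentile) to 4.36 (the 3 MP classes only). Between Myog-gated and Pax7-gated cells, genes called higher numbered 1 without the block of the library (no replicate block), 1 with DESeq2, 4 without single-library clusters, 4 with at most 10% mitochondrial UMIs, 0 in the 3 MP classes and 4 with a gate of 2 UMIs, where 25.4%, 23.6%, 32.1%, 25.6%, 33.4% and 25.6% of all genes were, and 0 to 5 with 1 library left out. Genes called lower numbered 30 in the 3 MP classes, 4 with a gate of 2 UMIs and 11 without the block, where 35.7%, 26.6% and 24.3% of all genes were, and 4 (without Pax7Cre replicate 1, 18.8% of all genes) to 18 (without miR-501KO replicate 1, 30.5%) with 1 library left out. The genotype median over all cells was 0.27 without mitosis-gated cells, and in cycling-like cells it was -0.16 at Leiden resolution 0.3. In quiescent-like cells the median ranged from -0.45 to 0.026 with 1 library left out. In committed-like cells the genes called higher numbered 2 with the run as a block, where 55 of all genes were called. Without a filter on low counts they numbered 5, where 75 of all genes were called. Calls of the genotype fits with 1 library left out are not given, since 1 genotype then had a single library. The committed-like median ranged from 0.073 without miR-501KO replicate 1 to 0.99 without miR-501KO replicate 2 or Pax7Cre replicate 1. It was 1.02 at Leiden resolution 1.0, 0.25 when clustering used the 38 genes and 1.10 when clustering left out cell-cycle genes. Without mitosis-gated cells it was -0.027, and with at most 100000 UMIs per cell -0.00019. For run 2 against run 1, the median ranged from -0.09 to 0.23 with 1 library left out. The difference in the share of mitosis-gated cells (miR-501KO minus Pax7Cre, in percentage points) changed sign to -1.79 over all cells and -2.46 in Myog-gated cells in the 3 MP classes, and was 1.61 without replicate 1 and -7.56 without replicate 2 in Pax7-gated cells. The run numbers paired the samples by label, and the block changed no other call on the 38 genes. Over all genes, the block moved the count of calls from 16 to 79 in quiescent-like, 2 to 36 in cycling-like and 3 to 55 in committed-like cells, and leaving it out moved that of mitosis-gated against S-gated cells from 4908 to 2601. Without a filter on low counts 104 genes were called in quiescent-like and 75 in committed-like cells, and DESeq2 called 12 in all cells against 0 by edgeR. Aurkb, Kif2c and Ttk had too few counts in committed-like cells to be tested. The causes of these changes were not tested.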
